A study of Mus musculus with 4 samples.

Results

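The 42 genes described here encode components of centrioles, of the centrosome that forms around them, and of a few structures built with centrosome proteins. They were listed by symbol, and each was read through the probes whose transcript accession belongs to that symbol in the RefSeq gene table. All 42 were measured, among 17963 features tested on arrays of mouse embryonic stem cells (ESCs), the pluripotent cells cultured from the blastocyst. The study compared parthenogenetic haploid ESC line 1 and line 2 with parthenogenetic diploid ESC line 1 and line 2, so that there were 2 haploid and 2 diploid samples. Parthenogenetic cells come from an egg activated without sperm, so both groups carry a maternal genome only, and all 4 samples are labelled female. Total RNA was labelled with Cy3 and hybridised to 1-colour Agilent arrays, one array per sample. No treatment, time point, passage number or feeder layer is named in the labels, and how haploid cells were kept apart from cells that had become diploid is not stated there either. The numbers of the lines do not say whether a haploid and a diploid line share an origin. The p-values rest on the spread between only 2 samples a group, which the fit pulls towards the spread of all features.

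A centriole is a barrel of microtubules that organises the centrosome, the main microtubule-organising centre and spindle pole of animal cells. A new centriole forms beside each old one when the kinase Plk4, held on the parent's wall by Cep152 and Cep192, starts a cartwheel made with Stil and Sass6, from which Cenpj extends the wall. The mature centriole carries distal and subdistal appendages, which dock it to the membrane to form a cilium and anchor microtubules, and the pericentriolar material around it holds the ring complexes of gamma-tubulin from which microtubules grow. In mouse, the first cleavage divisions run without centrioles, which appear in the embryo by the blastocyst stage.

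Signals are given throughout as log2 signal of a gene's brightest probe minus the 75th percentile of its own array, so a value of 0 is a signal at that percentile. Each array held 43020 spots other than controls, and the share of them well above background was 54.2% and 60.2% on the haploid arrays, against 55.6% and 65.4% on the diploid arrays. The correlation over features was 0.991 for the haploid pair and 0.993 for the diploid pair. The limma fit over all features, with p adjusted by Benjamini-Hochberg at 0.05, called 20 of 17963 features, 0.111%, of which 15 were higher and 5 lower in haploid ESCs. The median difference over all features was 0.02, and 46.8% of features had a difference below 0.

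None of the 42 genes passed the test, but their values leaned to one side: 32 of 42 (76.2%) had a lower mean signal in haploid ESCs, and the median difference, haploid minus diploid, was -0.21. The haploid arrays both lay below both diploid arrays for 19 genes (45.2%), against 20.9% of all features, and both lay above for 2 genes, Cetn2 and Cep131, against 26.0% of all features. The remaining 21 genes overlapped between the groups. Cep170 was well above background on 1 of 2 haploid arrays and entered through the diploid group, where it was higher; without it 31 of 41 genes lay below 0, the median was -0.20 and 18 genes had both haploid arrays lower. The differences ran from -0.89 for Cep152 to 0.52 for Cetn2, with quartiles of -0.40 and -0.03. The summed signal of the 42 genes did not lean lower. In units of each array's 75th percentile it was 77.8 and 76.7 in haploid ESCs, against 76.2 and 73.1 in diploid ESCs. The brightest genes weigh most in this sum. Levels in whole cultures do not tell apart fewer cells expressing a gene from less RNA per cell.

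By the limma fit, 0 of 42 genes had an adjusted p under the threshold, and the adjusted values ran from 0.236 to 0.987. At an unadjusted p under 0.05, 4 of the 41 genes measured on all arrays were lower in haploid ESCs (9.76%, against 4.92% of all features), namely Cep152, Cep350, Cep85 and Ninl, and Cep170 was the fifth of the 42. The count of 5 was 0 under normexp background correction on all spots and 0 without diploid replicate 2, and 3 under normexp without spots of outlying local background. At the same level 1 gene, Cetn2, was higher, where 6.79% of all features were. The standard errors of the members' differences had a median of 0.19, and the median half-width of their 95% intervals was 0.46, with 2 arrays a group. That width is not the limit of the adjusted test, which did not call even Cep152 at -0.89. In none of the 15 alternative settings did any of the 42 genes pass the adjusted threshold, and the smallest adjusted p of any of them in any setting was 0.066, with a trended and robust prior variance.

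**Figure D1:**
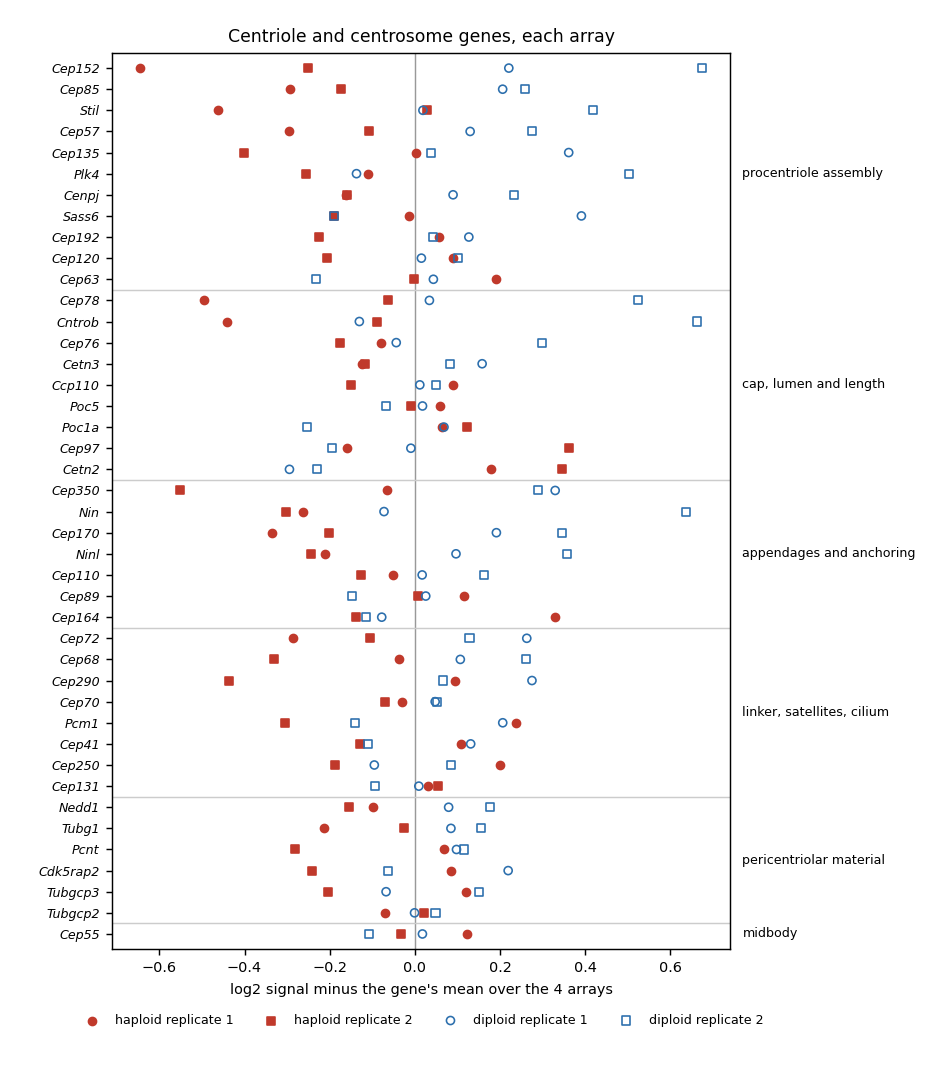
Signal of each of the 42 genes on each array, as log2 signal minus the gene's mean over the 4 arrays, grouped by role; filled red marks are the haploid arrays and open blue marks the diploid arrays (circles replicate 1, squares replicate 2). The red marks lie left of the blue ones in 19 rows, right of them in 2 rows, Cetn2 and Cep131, and among them in 21.

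With each gene centred on its mean over the 4 arrays, the median over the 42 genes was -0.03 and -0.15 on the haploid arrays, against 0.06 and 0.09 on the diploid arrays. The haploid arrays therefore stood lower than both diploid arrays, with the second haploid array farthest from the rest and the first one nearer to diploid replicate 1 than to its own partner. The differences between replicates were of a similar size to those between groups: haploid replicate 2 minus haploid replicate 1 ran from -0.54 to 0.52 over the 42 genes with a median of -0.07, and diploid replicate 2 minus diploid replicate 1 from -0.58 to 0.79 with a median of 0.04. The median size of the difference, whatever its sign, was 0.23 between the groups, against 0.19 within the haploid pair and 0.15 within the diploid pair. Without haploid replicate 2 the median difference was -0.10 and 27 genes lay below 0, and without haploid replicate 1 it was -0.29 with 34 genes below 0.

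**Figure D2:**
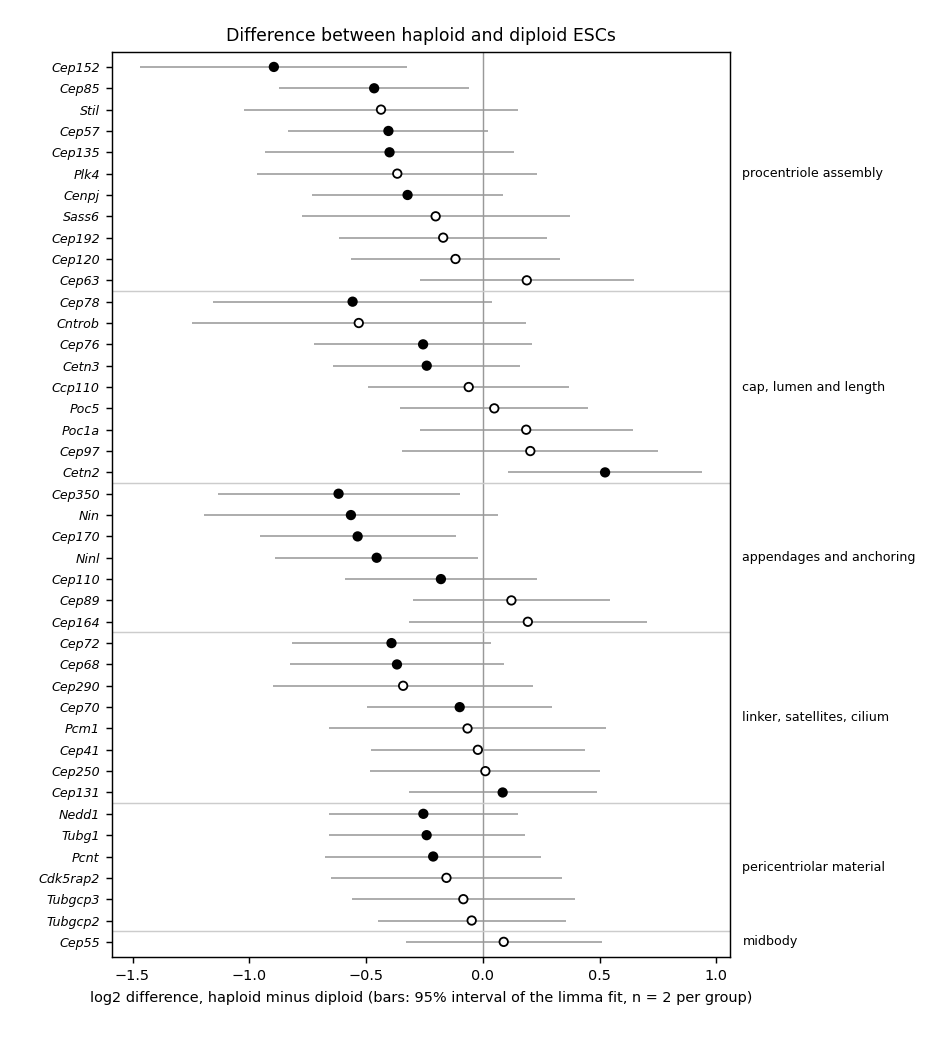
Difference between haploid and diploid ESCs in log2 units for each of the 42 genes, with its 95% interval from the limma fit (n = 2 arrays per group); filled points mark genes whose haploid and diploid arrays do not overlap. The intervals of 5 genes lie below 0, one of them Cep170, which was not well above background on 1 haploid array, and that of 1 gene, Cetn2, above it, before any adjustment for 17963 features.

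The upstream sequences of 4 of these genes are shown because 3 of them, Cep152, Cep85 and Cep57, had the smallest p-values among the genes of procentriole assembly whose groups did not overlap, and the other, Cetn2, was the gene with the largest difference in the opposite direction. They were chosen with their values known. Each is the 250 bases before the annotated start in RefSeq on GRCm38.p6, read 5′ to 3′ on the gene's strand, which is the minus strand for all 4: Cep152 at chr2:125625114-125625363, Cep85 at chr4:134187086-134187335, Cep57 at chr9:13827054-13827303 and Cetn2 at chrX:72918345-72918594. Capitals mark CCAAT boxes, spelled CCAAT or, on the other strand, ATTGG. They also mark the cell cycle homology region (CHR), spelled TTTGAA or TTCGAA or, on the other strand, TTCAAA. Both elements are known from promoters of genes expressed late in the cell cycle.
Cep152: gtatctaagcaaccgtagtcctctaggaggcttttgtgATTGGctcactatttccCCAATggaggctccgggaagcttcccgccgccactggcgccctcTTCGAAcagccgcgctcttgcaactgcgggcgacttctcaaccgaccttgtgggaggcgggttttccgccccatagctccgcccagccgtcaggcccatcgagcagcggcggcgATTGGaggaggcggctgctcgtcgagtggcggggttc
Cep85: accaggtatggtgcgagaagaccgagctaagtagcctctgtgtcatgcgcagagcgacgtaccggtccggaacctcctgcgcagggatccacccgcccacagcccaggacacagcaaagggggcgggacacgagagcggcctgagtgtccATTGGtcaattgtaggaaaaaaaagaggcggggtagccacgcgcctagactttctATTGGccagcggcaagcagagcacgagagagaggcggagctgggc
Cep57: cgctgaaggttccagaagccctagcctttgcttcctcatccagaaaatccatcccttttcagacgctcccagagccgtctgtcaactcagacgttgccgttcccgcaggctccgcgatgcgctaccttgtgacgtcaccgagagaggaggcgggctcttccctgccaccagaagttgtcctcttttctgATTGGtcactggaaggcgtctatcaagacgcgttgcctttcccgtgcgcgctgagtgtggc
Cetn2: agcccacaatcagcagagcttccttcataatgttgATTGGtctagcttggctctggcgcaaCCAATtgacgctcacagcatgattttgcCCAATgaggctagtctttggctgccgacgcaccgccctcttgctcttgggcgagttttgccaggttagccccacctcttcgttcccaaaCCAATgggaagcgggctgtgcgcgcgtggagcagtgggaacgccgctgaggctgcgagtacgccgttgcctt
The Cep152 sequence held 1 CHR, TTCGAA, 151 bases before the start, and 3 CCAAT boxes, at 212, 195 and 37 bases before it. Cep85 held CCAAT boxes at 100 and 45 bases and Cep57 one at 61 bases. Cetn2, with its difference in the other direction, held 4, at 215, 189, 161 and 72 bases. Of the 42 genes, 33 had an entry in the promoter table. A CCAAT box on either strand was present in 17 of the 33 (51.5%), against 37.5% of the 27025 genes in the table and 40.5% of those tested on the arrays. A CHR on either strand was present in 7 of 33 (21.2%), in Cep152, Cep164, Cep170, Cep55, Cep89, Nin and Sass6, against 19.6% of the table and 14.9% of tested genes. An E2F core, spelled TTTGGCGC, TTTCCCGC, TTTGCCGC or TTTCGCGC on either strand, was present in 2 of 33 (6.06%), Cep63 and Tubgcp3, against 2.16% of the table and 3.79% of tested genes. These matches describe letters in a window and were not tested.

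Among the 11 genes that start and build a new centriole, 10 had a lower mean signal in haploid ESCs. Their median difference was -0.37 (-0.20 under normexp without spots of outlying local background). Both haploid arrays lay below both diploid arrays for 5 of the 11 (45.5%), against 20.9% of all features. None passed the test. Cep152, the scaffold that recruits Plk4 to the parent centriole, had the largest difference of all 42 genes, with a signal of -3.05 and -2.66 in haploid ESCs, against -2.19 and -1.73 in diploid ESCs. The 4 arrays were clearly ordered by group, and the difference was -0.89 ± 0.24 (SE, n = 2 each; 95% interval -1.47 to -0.32), or 1.86-fold lower, with an adjusted p of 0.236 by limma. It stood at rank 632 of 17963 features by p. Leaving out any 1 array gave a difference between -1.12 and -0.67, and normexp without spots of outlying local background gave -0.44.

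Cep85, which in human cells binds Stil and helps Plk4 activation, had -2.67 and -2.55 in haploid ESCs, against -2.17 and -2.12 in diploid ESCs. Here the gap between groups was wider than that within either pair, with a difference of -0.47 ± 0.17 (SE; 95% interval -0.87 to -0.06) and an adjusted p of 0.369 by limma, and it was -0.20 under that normexp setting. Cep57, which with Cep63 holds Cep152 in a ring around the parent centriole, had 0.35 and 0.54 in haploid ESCs, against 0.77 and 0.92 in diploid ESCs. Its groups did not overlap, and the difference was -0.40 ± 0.18 (95% interval -0.83 to 0.02; adjusted p = 0.446 by limma). Cep63 itself was the 1 gene of this group on the other side, at 0.19.

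Plk4, the kinase that starts duplication, had a signal of -3.40 and -3.54 in haploid ESCs, against -3.42 and -2.78 in diploid ESCs. Diploid replicate 1 lay between the haploid arrays, so the difference of -0.37 ± 0.25 (95% interval -0.97 to 0.23; adjusted p = 0.582 by limma) came from diploid replicate 2, and without that array it was -0.05. Its partner Stil had -2.85 and -2.36 in haploid ESCs, against -2.37 and -1.97 in diploid ESCs, which overlapped by a small margin. The difference was -0.44 ± 0.24 (95% interval -1.02 to 0.15; adjusted p = 0.521 by limma), and it lay between -0.68 without haploid replicate 2 and -0.19 without haploid replicate 1. Sass6, whose protein forms the hub of the cartwheel, had -3.03 and -3.21 in haploid ESCs, against -2.63 and -3.21 in diploid ESCs. Its second replicates were level in the 2 groups, and the difference of -0.20 ± 0.24 (95% interval -0.78 to 0.37; adjusted p = 0.75 by limma) was 0.09 without diploid replicate 1.

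Cenpj, which extends the centriole wall by adding tubulin, had -0.56 on both haploid arrays, against -0.31 and -0.16 on the diploid arrays. The groups did not overlap, with a difference of -0.32 ± 0.17 (95% interval -0.73 to 0.09; adjusted p = 0.507 by limma). Cep192, the other receptor for Plk4 and a scaffold of the mitotic centrosome, had 0.40 and 0.12 in haploid ESCs, against 0.47 and 0.39 in diploid ESCs. The first haploid array lay between the diploid arrays, and the difference of -0.17 ± 0.18 (95% interval -0.61 to 0.27; adjusted p = 0.728 by limma) was -0.03 without haploid replicate 2. Cep135, which joins cartwheel and wall, had a difference of -0.40 with no overlap, which was -0.20 without haploid replicate 2, and Cep120, which serves wall elongation, one of -0.12 with overlap.

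The 9 genes of the centriole's distal cap, lumen and length control were split, 5 with lower and 4 with higher means in haploid ESCs and a median difference of -0.06, which had the opposite sign under both normexp settings (0.064 on all spots and 0.028 without spots of outlying local background). Cetn2, a centrin, which is a small calcium-binding protein of the centriole lumen and also a subunit of the nucleotide excision repair complex of Xpc, had 3.93 and 4.10 in haploid ESCs, against 3.46 and 3.52 in diploid ESCs. Both haploid arrays stood well above both diploid arrays, with a difference of 0.52 ± 0.17 (SE; 95% interval 0.11 to 0.94), or 1.44-fold higher, and an adjusted p of 0.326 by limma. Cetn3, the related centrin, lay on the opposite side at 2.13 on both haploid arrays, against 2.41 and 2.33 on the diploid arrays. Its difference was -0.24, and it took the opposite sign, 0.064, under normexp background correction on all spots.

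Cep78, a protein of mature centriole walls, had -2.77 and -2.34 in haploid ESCs, against -2.24 and -1.75 in diploid ESCs. The groups did not overlap, though the second haploid and first diploid arrays lay close together, and the difference was -0.56 ± 0.25 (95% interval -1.16 to 0.04; adjusted p = 0.448 by limma). It was -0.31 without diploid replicate 2. Cntrob, a protein of the daughter centriole, differed by -0.53, but its groups overlapped and the difference was -0.14 without diploid replicate 2. Of the cap that limits length, Ccp110 differed by -0.06 and its partner Cep97 by 0.20, both with overlapping groups and both with the opposite sign under normexp on all spots, while Cep76, which binds Ccp110, differed by -0.26 without overlap. Poc5, of the lumen, differed by 0.05 and Poc1a, which stabilises the wall, by 0.19, both with overlap.

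The 7 genes of the appendages and of microtubule anchoring had a median difference of -0.45. Both haploid arrays lay below both diploid arrays for 5 of them (71.4%), and for 4 of the 6 other than Cep170 (66.7%). Of all features, 20.9% met this condition. The median was -0.32 without Cep170, -0.28 with the mean of a gene's probes, -0.21 without diploid replicate 2 and -0.064 under normexp without spots of outlying local background. None passed the test. At an unadjusted p under 0.05 by limma, 2 of the 6 genes other than Cep170 were lower (33.3%), against 4.92% of all features. These genes are few and were listed with earlier results known. The 5 are proteins of subdistal appendages or of anchoring. By their brightest probes the distal appendage genes Cep164 and Cep89 differed by 0.19 and 0.12 with overlapping groups. Other probes gave -0.16 and -0.06 for Cep164 and -0.01 for Cep89. Among the 5 they gave 0.47 for Nin, -0.11 for Ninl and -0.57 for Cep110. The distal appendage genes Sclt1 and Cep83 differed by -0.83 and -0.49, and were picked by their small p from a list with 11 genes below 0 and 11 above. Whether the appendage types differed from each other was not tested. Cep350, which anchors microtubules and stabilises the centriole, had -3.26 and -3.74 in haploid ESCs, against -2.86 and -2.90 in diploid ESCs. The second haploid array was the lowest, and the difference was -0.62 ± 0.21 (95% interval -1.14 to -0.10; adjusted p = 0.349 by limma). It was -0.37 without that array and -0.064 under normexp without spots of outlying local background.

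Cep170, a marker of mature subdistal appendages, had -4.60 and -4.47 in haploid ESCs, against -4.07 and -3.92 in diploid ESCs. Its probe was well above background on 1 of the 2 haploid arrays and on both diploid arrays, so its haploid level is in part a bound. The fitted difference of -0.54 (adjusted p = 0.321 by limma) was -0.013 under normexp without spots of outlying local background. Ninl, the ninein-like protein, had -1.33 and -1.36 in haploid ESCs, against -1.02 and -0.76 in diploid ESCs. The haploid pair was tight and below both diploid arrays, with a difference of -0.45 ± 0.18 (95% interval -0.89 to -0.02; adjusted p = 0.413 by limma). Nin, the ninein that anchors microtubules at the subdistal appendages, had -1.81 and -1.85 in haploid ESCs, against -1.62 and -0.91 in diploid ESCs. Much of its difference of -0.56 lay in diploid replicate 2, without which it was -0.21. Cep110, carried in the reference table as Cntrl, the centriolin of subdistal appendages, differed by -0.18 without overlap.

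Of the 8 genes of the linker between centrioles, the centriolar satellites and the cilium base, 6 had lower means in haploid ESCs, with a median difference of -0.08, and under normexp on all spots the median was -0.46. Cep72, a satellite protein, had -3.42 and -3.24 in haploid ESCs, against -2.88 and -3.01 in diploid ESCs. Cep68, a linker fibre protein, had -1.54 and -1.84 in haploid ESCs, against -1.40 and -1.25 in diploid ESCs. Neither overlapped between groups, with differences of -0.39 and -0.37. That of Cep72 was -0.062 under normexp without spots of outlying local background, and that of Cep68 was -0.22 without haploid replicate 2. Cep250, the linker's main filament protein C-Nap1, differed by 0.01, with its arrays intermixed. Pcm1, the scaffold of the satellites, differed by -0.07, Cep290, of the ciliary transition zone, by -0.34, Cep41, which serves tubulin glutamylation in cilia, by -0.02 and Cep70, a centrosome protein, by -0.10, of which only Cep70 did not overlap. Cep131, another satellite protein, was the second gene with both haploid arrays above both diploid arrays, at a difference of 0.08.

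All 6 genes of the pericentriolar material and of gamma-tubulin complexes had lower means in haploid ESCs, with differences from -0.25 to -0.05 and a median of -0.18, and under normexp on all spots 4 of them, Pcnt, Cdk5rap2, Tubg1 and Tubgcp3, had the opposite sign, as had the median (0.084). None had an unadjusted p under 0.05. Nedd1, which brings the gamma-tubulin ring to the centrosome and spindle, had -1.51 and -1.56 in haploid ESCs, against -1.33 and -1.23 in diploid ESCs. The groups did not overlap, with a difference of -0.25 ± 0.17 (95% interval -0.66 to 0.15; adjusted p = 0.571 by limma). Tubg1, the gamma-tubulin, had 2.52 and 2.71 in haploid ESCs, against 2.82 and 2.89 in diploid ESCs. Its difference of -0.24 ± 0.17 (95% interval -0.66 to 0.18; adjusted p = 0.603 by limma) was little wider than the gap within the haploid pair, and was -0.15 without haploid replicate 1.

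Pcnt, pericentrin, the large scaffold of this material, had 2.0 and 1.65 in haploid ESCs, against 2.03 and 2.04 in diploid ESCs. Only the second haploid array stood apart, and the difference of -0.21 ± 0.19 (95% interval -0.68 to 0.25; adjusted p = 0.670 by limma) was -0.04 without it. Cdk5rap2, which activates gamma-tubulin rings, had 2.15 and 1.82 in haploid ESCs, against 2.28 and 2.0 in diploid ESCs. The groups overlapped, the difference was -0.16 ± 0.20 (95% interval -0.65 to 0.34; adjusted p = 0.777 by limma), and it was 0.01 without haploid replicate 2. The ring subunits Tubgcp2 and Tubgcp3 differed by -0.05 and -0.08 with overlap. Cep55, a relative by name that works at the midbody in abscission and not at the centriole, differed by 0.09 with overlap.

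The differences went with the brightness of the probes. Over all features split into 10 classes by mean signal, the median difference was -0.17 in the dimmest class and 0.22 in the brightest, so dim probes in general leaned lower and bright ones higher in haploid ESCs. Of the 42 genes, 25 lay in the 5 dimmer classes, where 22 were below 0 with a median of -0.37, against a median of -0.06 over all features there. The other 17 lay in the 5 brighter classes, where 10 were below 0 with a median of -0.06, against 0.08 over all features. Set against the median of its own class, 31 of the 42 genes were lower, and the medians of the genes' classes had themselves a median of -0.03. Brightness depends on the probe as well as on the transcript, and its part in the members' differences was not tested further.

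**Figure D3:**
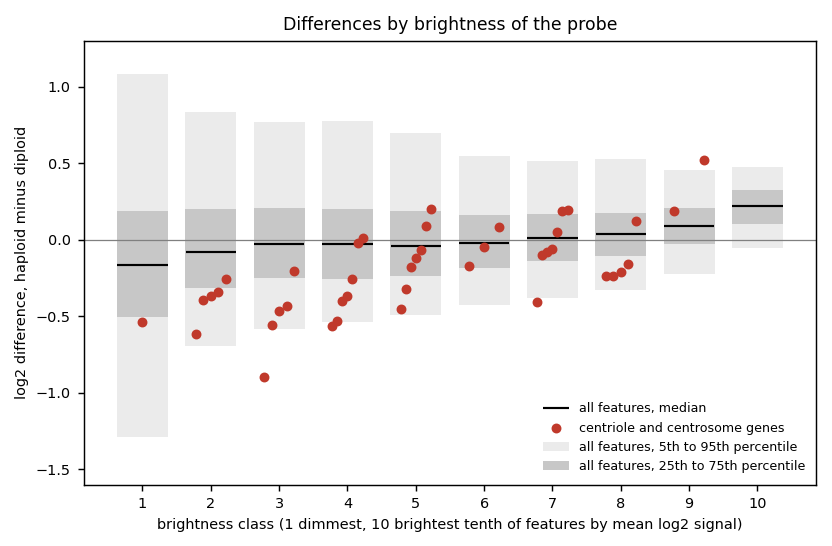
Difference between haploid and diploid ESCs in log2 units against brightness class (1 the dimmest, 10 the brightest, each an equal share of features); grey bars span the 5th to 95th and the 25th to 75th percentile of all features, black lines their median, and red points are the 42 genes. The black lines lie at -0.17 in class 1 and 0.22 in class 10, and 31 of the red points lie below the line of their class.

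The 42 genes were covered by 57 probes, of which 54 passed the filter (well above background on the whole of either group), and 11 genes had several such probes. In the fit over 21784 probes, 35 probes passed the adjusted threshold, none of them among these 54, whose smallest adjusted p by limma was 0.250. The probes of 4 of the 11 genes disagreed in sign, namely Nin, Cep164, Cep41 and Cep89. The difference of Nin was -0.56 by its brightest probe and 0.47 by its other, which held -4.34 and -3.08 on the haploid arrays, against -4.15 and -4.21 on the diploid arrays, a value set by 1 haploid array. Cep110 (Cntrl) differed by -0.18 and -0.57, Pcm1 by -0.07 and -0.35, Ninl by -0.45 and -0.11, Cep68 by -0.37 and -0.20, and Cdk5rap2 by -0.16 and -0.31 by their brightest and other probe, so these 5 kept their sign but not their size. Probes of 1 gene can read different transcript forms, which the files do not separate. Cep152, Cep85, Cep57 and Cetn2 each rested on a single probe.

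**Figure D4:**
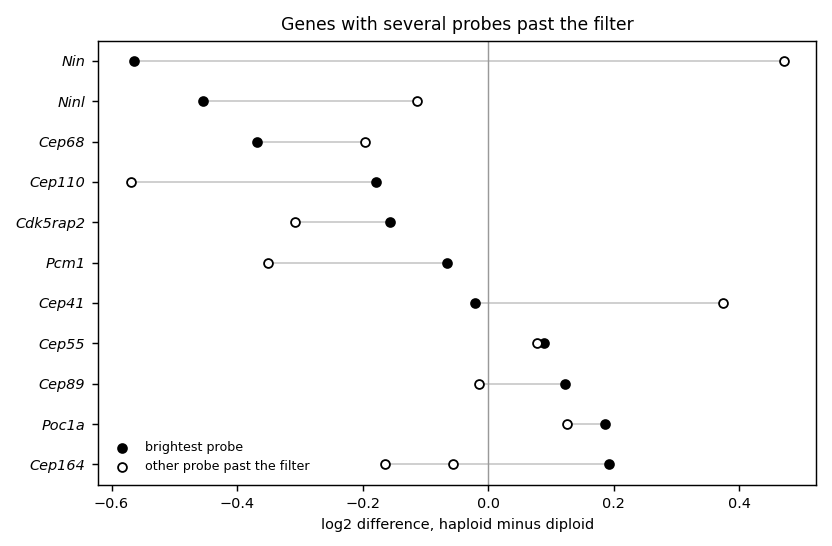
Difference between haploid and diploid ESCs in log2 units by each probe, for the 11 genes with several probes past the filter; filled points are the brightest probe, used elsewhere, and open points the others. The points of Nin, Cep164, Cep41 and Cep89 fall on both sides of 0.

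The sign of the median did not turn under any of the 15 alternative settings, but its size did depend on the second haploid array and on the background correction. Some settings do not bear on its sign. Without the filter, with a common floor, with the replicate block and with the trended and robust prior, the members' differences were those of the main setting. The median was -0.10 under normexp correction without spots of outlying local background, where all features had a median of 0.05, and -0.30 under normexp on all spots, where all features were themselves shifted to -0.10. Under normexp without spots of outlying local background, 15 of 24 genes in the 5 dimmer classes had differences over 1.5 times smaller, or turned, against 3 of 17 in the brighter classes. Under the remaining settings that kept all 4 arrays the median lay between -0.22 and -0.18. The number of genes with both haploid arrays below both diploid arrays was 17 to 20 in all settings that kept the 4 arrays, when 16.9% to 25.4% of all features met the condition, and the 20 were under quantile normalization with 25.4%. It was 22 to 31 when 1 array was left out, when 30.9% to 37.5% of all features met the same condition, and the 31 were those without haploid replicate 1.

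**Figure D5:**
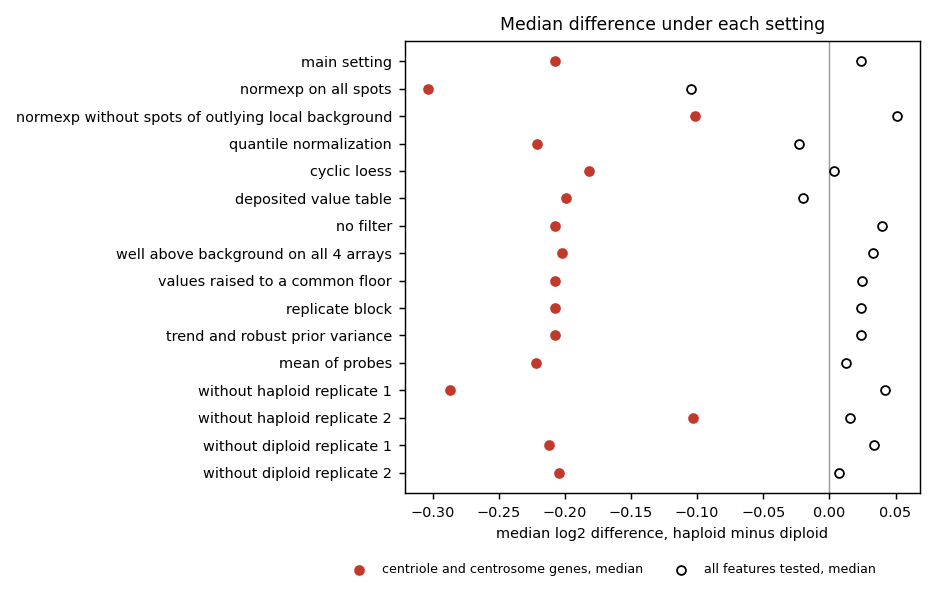
Median difference between haploid and diploid ESCs in log2 units over the 42 genes (red) and over all features tested (open) under the main setting and 15 alternatives. The red points stay left of 0, between -0.30 and -0.10.

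Other genes of the centrosome were read from wider lists. Of 76 further genes of centriole assembly, appendages and linker, and pericentriolar material, 72 were measured, and 39 of these (54.2%) had lower means in haploid ESCs, with a median difference of -0.04. None passed the test by limma. At an unadjusted p under 0.05, 3 were lower (4.17%) and 2 higher, where 4.92% and 6.79% of all features were, so neither count exceeded that share. Both haploid arrays lay below both diploid arrays for 21 of the 72 (29.2%), against 20.9% of all features. They lay above for 11 of the 72, where 26.0% of all features met that condition. The 27 genes of centriole assembly had a median of -0.07 with 17 below 0, the 22 of appendages and linker -0.06 with 11 below 0, and the 23 of pericentriolar material 0.01 with 11 below 0. The difference between the 42 and the 72 genes was not tested.

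The appendage and linker list held all 5 genes with an unadjusted p under 0.05, of which Sclt1, Lrrcc1 and Cep83 lay lower and Cep112 and Crocc higher in haploid ESCs. Sclt1, of the distal appendages, had -4.37 and -4.77 in haploid ESCs, against -3.75 and -3.73 in diploid ESCs, a difference of -0.83 ± 0.20 (SE, n = 2 each; adjusted p = 0.206 by limma) that was -0.12 under normexp without spots of outlying local background. Lrrcc1, a protein of the distal centriole, had -0.23 and -0.26 in haploid ESCs, against 0.33 and 0.42 in diploid ESCs, a difference of -0.62 ± 0.17 (adjusted p = 0.239 by limma). Cep83, which starts distal appendage assembly, had 1.27 and 1.39 in haploid ESCs, against 1.80 and 1.84 in diploid ESCs, a difference of -0.49 ± 0.17 (adjusted p = 0.343 by limma). In all 3 genes both haploid arrays lay below both diploid arrays by more than the spread of either pair. On the other side, and named after their values were seen, Cep112, a centrosome protein, had -2.58 and -2.89 in haploid ESCs, against -3.12 and -3.59 in diploid ESCs, a difference of 0.62 ± 0.23 (adjusted p = 0.383 by limma) that was 0.38 without diploid replicate 2 and -0.63 under normexp on all spots. Crocc, the rootletin that forms ciliary rootlets and linker fibres, had 0.68 and 0.73 in haploid ESCs, against 0.18 and 0.36 in diploid ESCs, a difference of 0.44 ± 0.17 (adjusted p = 0.408 by limma). Neither gene overlapped between the groups. The differences of the centriole assembly genes Rttn, Pibf1 and Mphosph9 were -0.40, -0.35 and -0.33. Under normexp without spots of outlying local background, Rttn and Pibf1 were each at -0.12 and Mphosph9 was at 0.057. The pericentriolar genes Akap9 and Tubgcp6 differed by -0.41 and -0.33, with -0.15 for Akap9 without haploid replicate 2 and -0.11 for Tubgcp6 without diploid replicate 2. Haus8, a subunit of the augmin complex that branches spindle microtubules, also lay on the higher side, with 3.96 and 4.05 in haploid ESCs, against 3.74 and 3.53 in diploid ESCs, a difference of 0.37 ± 0.18 (adjusted p = 0.477 by limma).

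Cells that lose or gain centrosomes can arrest through p53, by way of Usp28 and Trp53bp1 or of the complex of Ankrd26, Pidd1, Cradd and Casp2. Of 10 genes of this surveillance, 7 had lower means in haploid ESCs, with a median difference of -0.07, and none passed the test. The p53 targets Cdkn1a and Mdm2 were the 2 with an unadjusted p under 0.05, both on the higher side, where 6.79% of all features were. Cdkn1a, the inhibitor p21, had 1.76 and 1.79 in haploid ESCs, against 1.31 and 1.40 in diploid ESCs, a difference of 0.42 ± 0.17 (adjusted p = 0.413 by limma). Mdm2, the ubiquitin ligase of p53, had 4.06 and 3.70 in haploid ESCs, against 3.49 and 3.25 in diploid ESCs, a difference of 0.51 ± 0.20 (adjusted p = 0.414 by limma) that was 0.33 without haploid replicate 1. For these 2 of the 10 genes both haploid arrays lay above both diploid arrays, as they did for 26.0% of all features. They lay below for 2 others, Ankrd26 and Casp2, against 20.9% of all features. Whether p53 activity differed was not tested. Ankrd26 differed by -0.29, Casp2 by -0.25, Usp28 by -0.12, Lats2 by -0.12, Pidd1 by -0.08, Trp53bp1 and Trp53 each by -0.06 and Cradd by 0.00.

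Markers of the labelled cell type were present: all 14 ESC markers, Pou5f1 and Sox2 among them, were well above background on every array, with a median difference of 0.05. Of the 14, 6 lay below 0 and 8 above, and none passed the test. Tdgf1 (-0.51), Nanog (-0.37), Sall4 (-0.30) and Utf1 (-0.26) were lower without overlap, a condition met by 20.9% of all features. Another 4 were higher without overlap, as 26.0% of all features were. The summed signal of the ESC markers, in units of each array's 75th percentile, was 311 and 298 in haploid ESCs, against 291 and 259 in diploid ESCs. Over all features the sum was 273464 and 276409, against 259389 and 208610, so it too was higher on the haploid arrays. Markers of other cells also had higher sums there, and none of them passed the test. Of 25 fibroblast markers 21 were measured, 16 of them above 0 with a median difference of 0.46, and their summed signal, in units of each array's 75th percentile, was 65.1 and 61.8 in haploid ESCs, against 50.4 and 43.7 in diploid ESCs. The 5 below 0 were Cdh11 (-0.71), Col3a1 (-0.39), Dcn (-0.38), Lum (-0.29) and Twist1 (-0.23). Of 12 trophectoderm markers 9 were measured, 7 of them above 0 with a median of 0.50, and their summed signal was 19.3 and 16.0 in haploid ESCs, against 14.2 and 14.6 in diploid ESCs. The largest difference was 1.23 for Krt18, with 2.61 on both haploid arrays, against 1.43 and 1.33 on the diploid arrays. The 2 below 0 were Eomes (-0.43, without overlap) and Tfap2c (-0.14, with overlap). The fibroblast markers Pdgfra and Prrx1 and the trophectoderm factor Elf5 were not well above background on any array, and Pdgfrb, Fap, Cdx2 and Hand1 did not reach it on both arrays of either group. The part of such cells in the differences of the centriole and centrosome genes was not tested.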

How the data were processed

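Total RNA of 2 haploid and 2 diploid parthenogenetic ESC samples was read on 1-colour arrays. The deposited scanner files hold spot intensity, background-subtracted by Agilent Feature Extraction 11.0.1.1 per the file headers, which name build mm9. The deposited value table holds intensity for the same arrays, with a median of 28.3 to 28.4 in each; it ranked spots like the scanner signal (Spearman's rho 0.9999 on each array), its scaling being unstated, and was used as an alternative. Flag columns of the deposited files marked outlier, saturated and background spots.

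Control and outlier-marked spots were left out and spots of a probe averaged; no spot was saturated. Of 39429 probes, 26055 were named through their accession in the RefSeq table for GRCm38.p6 (19751 symbols). Cep110 is read as Cntrl, of which it is an older symbol. Probes were kept where the scanner marked them well above background on the whole of a group, haploid or diploid (21784), with the brightest per gene, unnamed probes standing alone. The log2 processed signal minus the array's 75th percentile was tested with limma 3.58.1 in R 4.3.3 (lmFit and eBayes, two-sided, Benjamini-Hochberg over 17963 features), a fit checked on simulated data. Normexp, with an offset of 50, used the median spot signal, where the mean had been planned.

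The 42 genes and all lists were chosen with earlier results of these data known, so no list was tested. Full statistics are given for the 8 genes with the smallest p among those without overlap and for 10 core genes, and up to 3 genes are named per other list, with Cep112 and Crocc added after their values were seen. The number of arrays limits the precision.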

Additional observations from a re-analysis of the deposited data

How the results depend on the processing

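None of the 42 genes passed the adjusted threshold under any of the 15 alternatives, whereas the number of features called, 20 in the reported fit, was unstable: 0 under normexp on all spots, cyclic loess, no filter or a common floor, 2 with the replicate number as a block, 4 from the deposited value table, 7 under quantile normalization, 82 with probes well above background on all 4 arrays, 116 under normexp without spots of outlying local background, 425 with a trended and robust prior variance, and 0 to 294 when 1 array was left out (294 without haploid replicate 2). The median difference of the 42 genes, -0.21, was -0.30 under normexp on all spots and -0.10 under normexp without spots of outlying local background. It was -0.29 to -0.10 when 1 array was left out, and genes below 0 then numbered 27 to 34. Genes with both haploid arrays lower then numbered 22 to 31, when 30.9% to 37.5% of all features met that condition. In the main setting they numbered 19, when 20.9% of all features met it. Both counts were chosen after seeing the data. Of 838 values of 56 named genes under the alternatives, 806 kept their direction and 32, of 18 genes, turned it, all among differences that missed the threshold. The replicate block and the trended and robust prior leave the differences unchanged, so no value could turn under them. Without the filter, and with probes well above background on all 4 arrays, the named genes' differences were also those of the main setting. With a common floor only that of Sclt1 changed, to -0.75. The mean of probes leaves the 29 members with 1 probe unchanged. The 806 therefore include many values that the setting left as they were. Normexp on all spots turned Ccp110 (0.074), Cep97 (-0.21), Cetn3 (0.064), Cep250 (-0.46), Cep70 (0.035), Pcnt (0.10), Cdk5rap2 (0.094), Tubg1 (0.14), Tubgcp3 (0.074), Cep55 (-0.17) and Cep112 (-0.63); normexp without spots of outlying local background turned Sass6 (0.023), Cep76 (0.048), Cep41 (0.048) and Mphosph9 (0.057); cyclic loess turned Cep41 (0.020), and the mean of probes Cep164 (-0.0093) and Cep41 (0.18). Leaving out 1 array gave ranges across 0 for Cep164 (-0.041 to 0.43), Cep250 (-0.18 to 0.20), Cep120 (-0.26 to 0.030), Ccp110 (-0.18 to 0.060), Cep97 (-0.058 to 0.46), Pcm1 (-0.34 to 0.21), Cep41 (-0.14 to 0.10), Cdk5rap2 (-0.32 to 0.0071), Tubgcp3 (-0.25 to 0.079) and Sass6 (-0.49 to 0.088). The cause of these turns was not tested. The samples share only a replicate number: the deviations of same-numbered arrays from their group means correlated at 0.048, and the block changed no call among the 42 genes (smallest adjusted p 0.172 by limma). Leaving out 1 array leaves a group with 1 sample, which is then assumed to vary like the other group. Probes near background, such as that of Cep170, are the least certain.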
